A study of Mus musculus with 35 samples.

Results

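The miRNAs of the mouse liver 30 days after a single injection of the alkylating agent N-ethyl-N-nitrosourea (ENU) were measured in 4 mice, out of 35 mice in the whole series. These mice, the ENU_Day 30 group of post-treatment day (PTD) 30, were chosen by their labels, and no measured value entered the choice. They were compared with the 7 mice given only the vehicle dimethylsulfoxide (DMSO), and then with the 4 DMSO_Day 30 mice alone. The question was which miRNAs still differed from the controls a month after ENU.

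All mice were female Big Blue transgenic mice, a line that carries a recoverable reporter gene for counting mutations, with an age of 6 months in the labels of every group. ENU was given into the peritoneum at 120 mg/kg body weight. The labels give 3 controls as DMSO_Day 1 and 4 as DMSO_Day 30, whereas the methods of the study divide the 7 controls the other way round, so that the day of a control is given here only as its label. The ENU_Day 15 group of 5 mice and the ENU_Day 120 group of 4 mice received the same ENU dose.

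Small RNA of a piece of each liver was measured on 1 PCR array of 384 wells with assays for 376 miRNAs. The threshold cycle (Ct) of a well is the PCR cycle in which the signal there reaches a set line, and it is lower where more RNA was present. Levels are given as -dCt, the mean Ct of 4 reference RNAs (snoRNA251, snoRNA202, snoRNA142 and U6) of an array minus the Ct of the miRNA, which is a log2 scale. The difference between 2 group means of -dCt is a log2 fold change. In pieces of whole liver, fewer cells of a type and less RNA per cell cannot be told apart. The hepatocyte miRNA miR-122 had Ct values of 13.7 to 14.5 in the 11 arrays of ENU_Day 30 and DMSO, whereas those of miR-216a, a miRNA of the pancreas, had a mean of 33.0.

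The arrays were run in 3 periods, and all 4 ENU_Day 30 arrays fell into the second. Of the controls, the 3 DMSO_Day 1 arrays were run in the first period, DMSO_Day 30 replicates 1 and 2 in the second, and DMSO_Day 30 replicates 3 and 4 in the third. Averaged over the reference RNAs, the Ct was 21.9 ± 0.249 (SD, n = 4) in ENU_Day 30, 21.2 ± 0.135 (SD, n = 3) in DMSO_Day 1 and 22.1 ± 0.265 (SD, n = 4) in DMSO_Day 30. The Ct of the first reverse transcription control well minus that of the second lay between -0.35 and -0.09 in ENU_Day 30 and was positive among the controls in DMSO_Day 30 replicates 3 and 4 only, at 0.283 and 0.295. These 2 controls therefore stood apart from the other 5, and the DEM count is also given without them. No Ct was given for miR-743b-5p in DMSO_Day 30 replicate 1 and for miR-466b-5p in ENU_Day 30 replicate 4, and these wells were treated as missing.

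ENU transfers ethyl groups to DNA bases, and DNA damage of this kind can stabilise the tumour suppressor p53. A miRNA guides silencing complexes to mRNAs mainly through its seed, the bases 2 to 8 at its 5′ end, so that miRNAs with 1 seed share many targets. The tumour suppressor binds to and switches on the genes of miR-34, and the miRNAs of this family restrain the cell cycle and favour apoptosis by lowering cyclin-dependent kinases, MET and other growth regulators. The miR-449 miRNAs carry the same seed but come from an intron of Cdc20b and are best known from ciliated epithelia.

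The mature sequences of the miRNAs on which the results turn are shown 5′ to 3′ with the seed in capitals, as RefSeq gives them for the mouse build GRCm38.p6. Of the 376 array names, 104 matched a RefSeq name and a further 186, which give no arm, matched a miRNA with at least 1 arm there. The first set shows that miR-34a, miR-34b-5p, miR-449a and miR-449c share the seed GGCAGUG, whereas the other arm of the miR-34b hairpin does not.
miR-34a-5p: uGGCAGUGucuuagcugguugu
miR-34b-5p: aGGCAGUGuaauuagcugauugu
miR-449a-5p: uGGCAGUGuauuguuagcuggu
miR-449c-5p: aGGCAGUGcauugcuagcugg
miR-34b-3p: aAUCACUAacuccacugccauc

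Mir34a lies on the plus strand at chr4:150068454-150068555. Mir34b and Mir34c lie on the minus strand of chromosome 9, at chr9:51103562-51103645 and chr9:51103034-51103110, within the bounds of the protein-coding genes Hoatz and Btg4. Mature miR-34c-5p, miR-135b-5p and miR-449b are named only.

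The second set holds the miR-96, miR-182 and miR-183 cluster, which is transcribed as 1 unit with the lncRNA Mirc35hg on chromosome 6, and the other DEMs with a printed sequence. Within the cluster, the 3 seeds differ. The array name miR-698 gives no arm, so both arms are shown.
miR-96-5p: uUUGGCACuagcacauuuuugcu
miR-182-5p: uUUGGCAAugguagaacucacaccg
miR-183-5p: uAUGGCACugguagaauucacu
miR-698-5p: uGUGGGUGggacagggauguu
miR-698-3p: cAUUCUCGuuuccuucccu
miR-434-3p: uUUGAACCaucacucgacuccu
miR-770-3p: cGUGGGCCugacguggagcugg
miR-343: uCUCCCUUcaugugcccaga

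At PTD 30, 6 miRNAs were up-regulated against the 7 controls and 0 were down-regulated. The up-regulated miRNAs were miR-34a, miR-34b-5p and miR-34c of the miR-34 family, miR-135b, miR-96 and miR-698. A differentially expressed miRNA (DEM) had an unadjusted p under 0.01 by limma's moderated test (two-sided) and a fold change above 2. These 6 DEMs were 1.6% of the 376 miRNAs tested. Only miR-34a and miR-34b-5p, 0.532% of the miRNAs, had a Benjamini-Hochberg adjusted p of limma under 0.05. At an unadjusted limma p under 0.05, 40 miRNAs (10.6%) were higher and 0 were lower.

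For miR-34a, the -dCt values of the 4 ENU_Day 30 livers were 0.24, 1.07, 1.19 and 0.47. In the controls they were -0.86, -1.62 and -0.66 in DMSO_Day 1 and -0.92, -1.51, -1.79 and -1.29 in DMSO_Day 30. Every ENU_Day 30 liver was above every control, and so the groups did not overlap. The log2 fold change was 1.98 with an SE of 0.34, a fold change of 3.93 (limma, adjusted p = 0.0102). The exact permutation test gave p = 0.00303, the smallest p that 4 against 7 samples allow.

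The levels of miR-34b-5p were -4.48, -3.61, -3.54 and -4.34 in ENU_Day 30. DMSO_Day 1 gave -6.39, -6.52 and -5.76, and DMSO_Day 30 gave -5.67, -5.95, -6.56 and -6.23. The lowest ENU_Day 30 liver was thus again above the highest control. With a log2 fold change of 2.17 and an SE of 0.33, miR-34b-5p was up-regulated 4.48 times (limma, adjusted p = 0.0058, and exact permutation test, p = 0.00303).

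Among the 4 ENU_Day 30 livers, replicates 2 and 3 had the higher values and replicates 1 and 4 the lower ones for miR-34a, miR-34b-5p, miR-34c and miR-96 alike, and these levels of 1 liver share the array and its reference RNAs.

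Levels of miR-34c, which is cut from the same primary transcript as miR-34b, were -8.49, -7.56, -7.74 and -8.59 in ENU_Day 30. They were -9.60, -9.36 and -9.00 in DMSO_Day 1 and -9.78, -9.47, -8.61 and -8.54 in DMSO_Day 30. The 5 controls of the first and second run periods were below all ENU_Day 30 livers, whereas of the 2 controls of the third, 1 was above the lowest ENU_Day 30 liver and the other just below it. The log2 fold change was 1.10 with an SE of 0.36 (limma, adjusted p = 0.435, and exact permutation test, p = 0.00909). This call was the least stable of the miR-34 calls, as it was lost in 15 of 29 alternatives. With the median Ct of each array as the reference, its log2 fold change was 0.69 (exact permutation test, p = 0.0879).

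The other members that were listed with the family did not pass the DEM thresholds. The -dCt values of miR-34b-3p, the opposite arm of the miR-34b hairpin, lay between -9.04 and -7.89 in ENU_Day 30 and between -9.16 and -7.62 in the controls, with a log2 fold change of 0.05 ± 0.35 (SE). Its partner on the other arm had 2.17, and the difference between the arms was not tested. For miR-449a, miR-449b and miR-449c, the log2 fold changes were 0.07, 1.19 and 0.40, with limma p values of 0.919, 0.0545 and 0.428.

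For miR-135b, of a family known to lower APC, an inhibitor of Wnt signalling, the 4 ENU_Day 30 livers were close together at -5.27, -5.77, -5.72 and -6.06. The controls spread widely, with -8.98, -7.17 and -7.51 in DMSO_Day 1 and -6.47, -6.79, -9.21 and -9.68 in DMSO_Day 30. No control reached the ENU_Day 30 livers, but the 2 controls of the same run period were the nearest. The log2 fold change was 2.27 with an SE of 0.60 (limma, adjusted p = 0.285, and exact permutation test, p = 0.0121). With only the 2 controls of the same run period it was 0.93, which is under the fold threshold, and the call was kept in 25 of 30 alternatives.

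The levels of miR-96, a miRNA of sensory and epithelial cells that targets FOXO transcription factors, were -4.22, -2.76, -2.67 and -4.24 in ENU_Day 30. DMSO_Day 1 gave -5.94, -5.83 and -6.60, and DMSO_Day 30 gave -4.81, -3.66, -5.40 and -4.30. ENU_Day 30 lay above all DMSO_Day 1 livers but overlapped with DMSO_Day 30. Its log2 fold change was 1.75 with an SE of 0.56 (limma, adjusted p = 0.435). The call was lost in 15 of 30 alternatives, and its log2 fold change dropped to 0.76 where DMSO_Day 30 replicates 1 and 2, run together with ENU_Day 30 in the second period, were the only controls. The neighbours of miR-96 in the cluster had log2 fold changes of 1.46 ± 0.52 (SE) for miR-183 and 1.32 ± 0.56 (SE) for miR-182, with limma p values of 0.0141 and 0.035, and neither was a DEM. Over the 3 members of the cluster, the median log2 fold change was 1.46 against 0.54 over all miRNAs. Against DMSO_Day 30 alone, it was 0.84 against 0.06, and 0 of the 3 members had a limma p under 0.05, beside 4.79% of all miRNAs higher and 3.46% lower.

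For miR-698, a rodent miRNA without a well-established role, the levels were -6.90, -9.35, -7.67 and -7.80 in ENU_Day 30. The controls lay between -10.75 and -8.40. ENU_Day 30 replicate 2 was within this range and the others were above it. The log2 fold change was 1.87 with an SE of 0.54 (limma, adjusted p = 0.407), at a mean Ct of 30.9, and the call was lost in 9 of 29 alternatives.

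**Figure D1:**
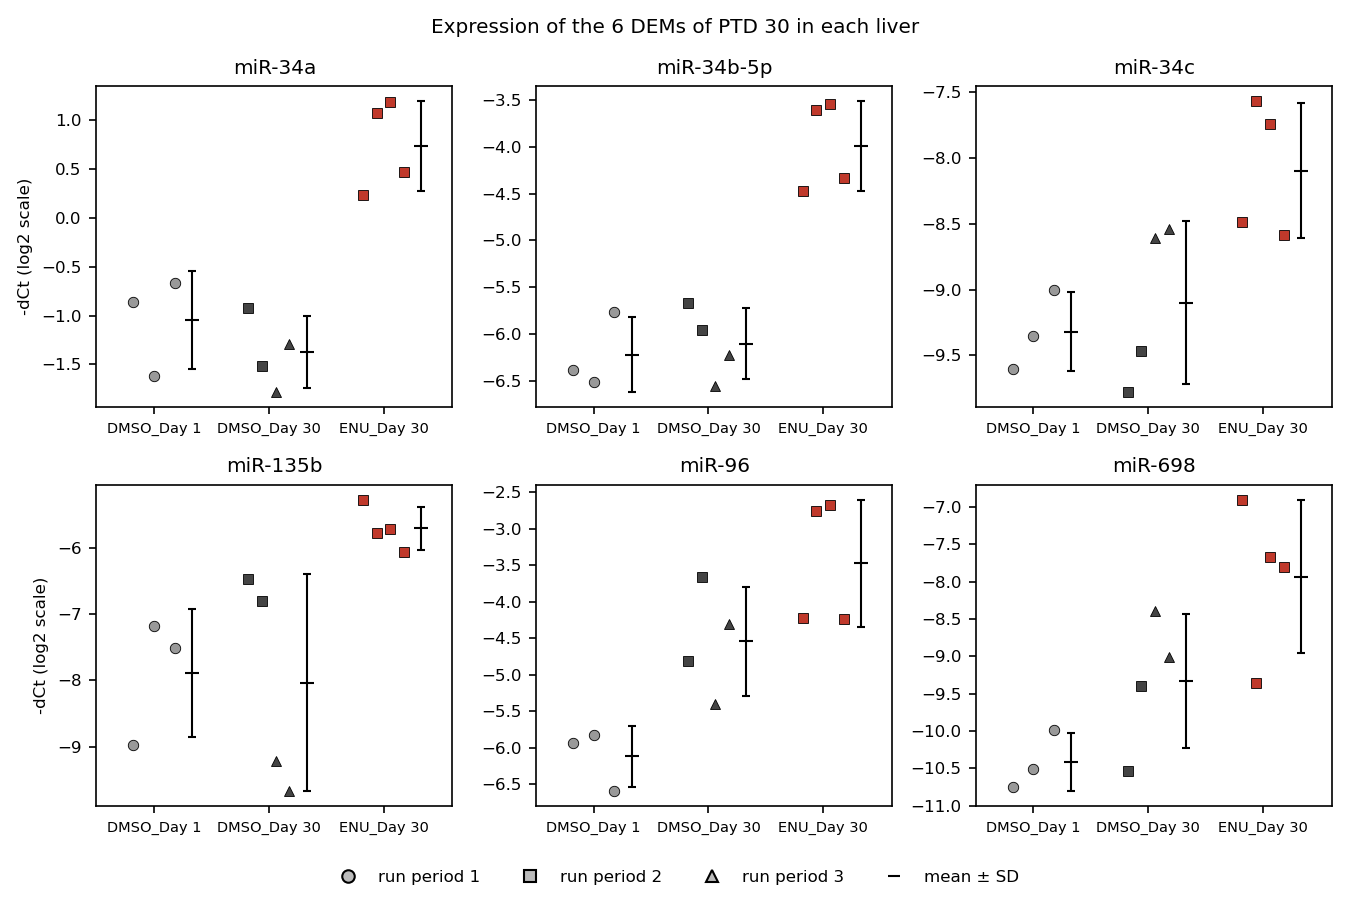
Levels of the 6 DEMs as -dCt (log2 scale, y axis) in each liver of the DMSO_Day 1 (n = 3), DMSO_Day 30 (n = 4) and ENU_Day 30 (n = 4) groups, with the run period of the array as the symbol and the mean ± SD beside the points. The 4 ENU_Day 30 livers lie above all 7 controls for miR-34a, miR-34b-5p and miR-135b, and overlap with controls for miR-34c, miR-96 and miR-698.

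Of the 376 miRNAs, 5 (1.33%) were higher in every ENU_Day 30 liver than in every control and 0 were lower in every one. Beside miR-34a, miR-34b-5p and miR-135b, these were miR-101b and miR-590-5p, which were not DEMs in this fit. The first was named as the hepatocyte miRNA with the smallest limma p, and miR-590-5p after its range was seen. The levels of miR-101b, a hepatocyte miRNA that targets the methyltransferase EZH2, lay between 3.18 and 4.05 in ENU_Day 30 and between 1.87 and 3.17 in the controls, with a log2 fold change of 0.98 ± 0.34 (limma, adjusted p = 0.435). For miR-590-5p, which shares its seed with miR-21, they lay between -10.48 and -9.45 in ENU_Day 30 and between -15.05 and -10.55 in the controls. This miRNA was a DEM with Ct above 35 set to 35, with replicate number as a block and without DMSO_Day 30 replicate 4. It was also a DEM without the controls of the third run period, and the study lists it as up-regulated at PTD 30. Of 30 alternatives, 3 called miR-101b.

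Most miRNAs were higher on average. Of the 376, 324 (86.2%) had a log2 fold change above 0 against the 7 controls, and the median over all miRNAs was 0.54. The median was 0.06 against DMSO_Day 30 alone, 0.04 against the 2 DMSO_Day 30 livers of the same run period and 1.11 against DMSO_Day 1 alone, and it was 0.13 with the median Ct of each array as the reference. The reference RNAs themselves had a lower mean Ct in DMSO_Day 1 (21.2) than in DMSO_Day 30 (22.1), and the part of this in the median was not tested. Single changes are therefore to be read against 0.54 for the 7 controls and against 0.06 for DMSO_Day 30.

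No miRNA with a lower level passed an unadjusted limma p under 0.05 against the 7 controls. The 5 lower miRNAs with the smallest limma p were miR-721, miR-654-3p, miR-882, miR-759 and miR-380-3p, with log2 fold changes of -1.13, -1.38, -1.40, -1.69 and -0.94 and limma p values between 0.0659 and 0.271. Their mean Ct lay between 32.9 and 37.1, late in the 40 cycles of the PCR.

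The check against the 4 DMSO_Day 30 livers alone, which are part of the 7 controls, gave 5 DEMs (1.33%), of which 4 (1.06%) were up-regulated and 1 (0.266%) was down-regulated. The up-regulated miRNAs were miR-34a, miR-34b-5p, miR-135b and miR-434-3p, and miR-770-3p was down-regulated. The split between the directions depended on the setting, with 2 up and 5 down without snoRNA142 among the references, 3 up and 11 down without DMSO_Day 30 replicate 1, and 12 up and 2 down without DMSO_Day 30 replicate 2. The DEMs found against both sets of controls were miR-34a, miR-34b-5p and miR-135b, 3 of the 6 and 3 of the 5, and the sets share these 4 livers. The log2 fold changes of miR-34a and miR-34b-5p were 2.12 ± 0.33 (SE) and 2.11 ± 0.34 (SE) (limma, adjusted p = 0.022 for each), and that of miR-135b was 2.34 ± 0.71 (SE) (limma, adjusted p = 0.587). With 4 against 4 samples, the exact permutation test cannot go below p = 0.0286, and it gave this p for all 3 miRNAs. At an unadjusted limma p under 0.05, 18 miRNAs (4.79%) were higher and 13 (3.46%) were lower, and 211 (56.1%) had a log2 fold change above 0.

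The DEMs against DMSO_Day 30 alone included miR-434-3p and miR-770-3p, which both come from the imprinted Dlk1-Dio3 region of chromosome 12, whose miRNAs are expressed from the maternal chromosome and are scarce in adult liver. The levels of miR-434-3p were -8.45, -8.76, -8.96 and -9.28 in ENU_Day 30 and -10.06, -9.35, -10.49 and -10.16 in DMSO_Day 30, with no overlap and a log2 fold change of 1.15 ± 0.33 (limma, adjusted p = 0.587). With -9.26, -9.39 and -9.95, the DMSO_Day 1 livers reached down from just above the lowest ENU_Day 30 liver. For miR-770-3p, the levels were -7.92, -8.52, -8.05 and -8.39 in ENU_Day 30 and -7.95, -7.01, -6.37 and -6.63 in DMSO_Day 30, and 1 control overlapped. The log2 fold change was -1.23 ± 0.38 (limma, adjusted p = 0.587). The DMSO_Day 1 livers had lower levels than all of these, at -10.15, -9.25 and -9.20, so that against DMSO_Day 1 alone the log2 fold change was 1.31 in the other direction.

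**Figure D2:**
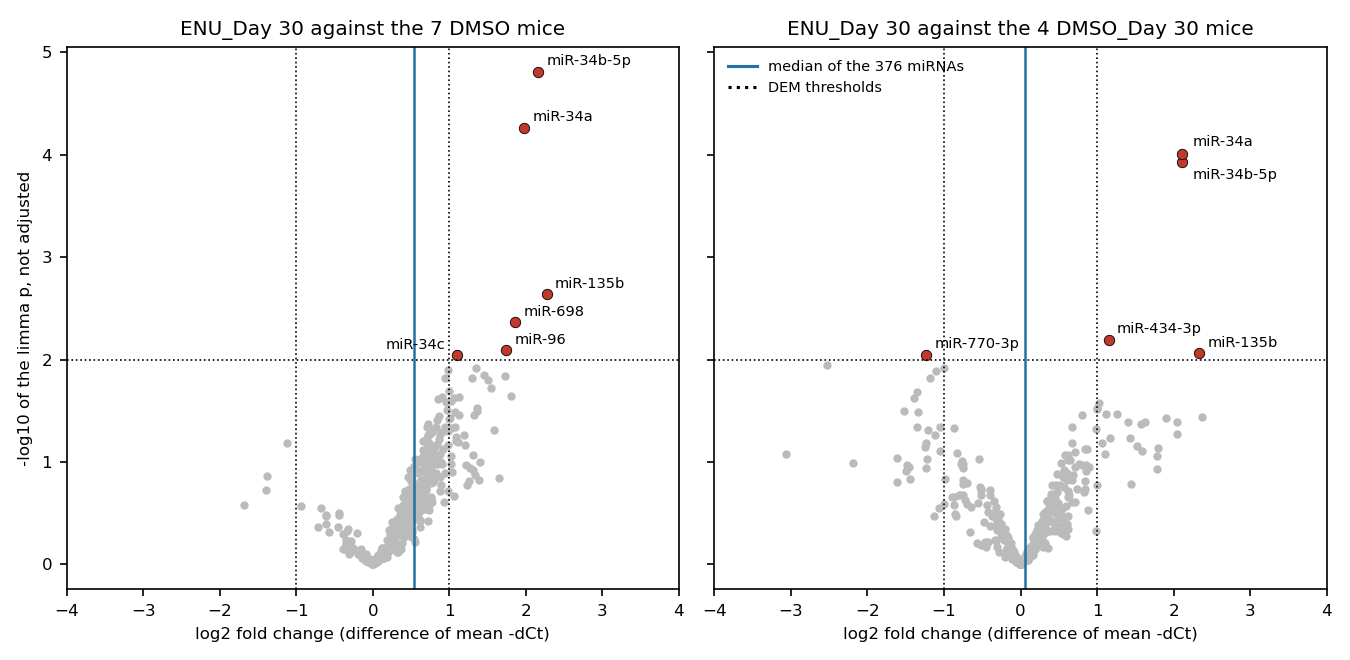
Each point is 1 of the 376 miRNAs, with its log2 fold change at PTD 30 on the x axis and the -log10 of its unadjusted limma p on the y axis, against the 7 DMSO livers (left) and the 4 DMSO_Day 30 livers (right). DEMs are red, dotted lines mark the DEM thresholds, and the blue line marks the median of all miRNAs, 0.54 on the left and 0.06 on the right.

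Against the 2 DMSO_Day 30 livers of the same run period, the DEMs were miR-34a, miR-34b-5p and miR-34c and no others. Their log2 fold changes were 1.96, 1.82 and 1.53, and each of the 4 ENU_Day 30 livers was above both controls. The exact permutation test of 4 against 2 samples cannot go below p = 0.0667, which it gave for each of the 3. The log2 fold change of miR-698 was 2.03 here, with all 4 ENU_Day 30 livers above both controls and the same exact permutation p, but its limma p was just above the DEM threshold. With run period as a block in the limma fit, these 3 and miR-698 were DEMs. Without the 2 controls of the third run period, 13 miRNAs were DEMs, including the 6 found against the 7 controls. The calls of miR-34a and miR-34b-5p were kept in 30 of 30 alternatives, with log2 fold changes of 1.57 to 2.14 and of 1.76 to 2.33. The adjusted limma p of miR-34a ranged from 0.00167 to 0.667 over these alternatives, and that of miR-34b-5p from 3.59e-05 to 0.307.

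**Figure D3:**
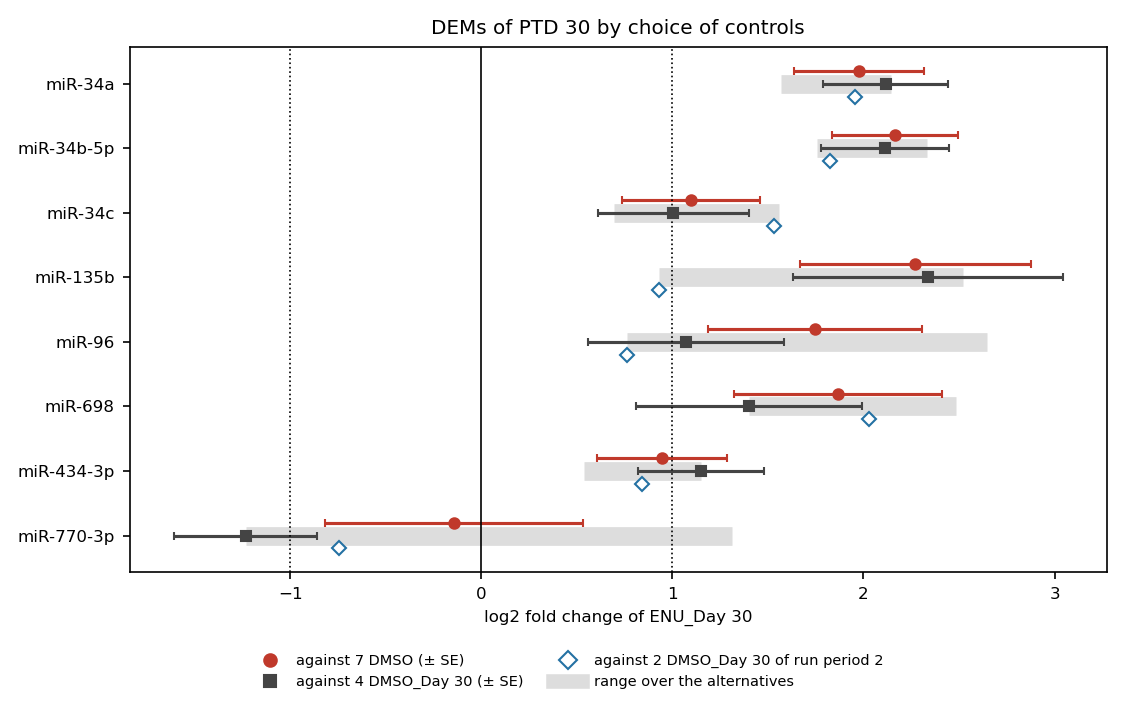
Log2 fold change of ENU_Day 30 (x axis) for the 8 miRNAs that were DEMs against the 7 DMSO or the 4 DMSO_Day 30 livers, with the SE of the limma fit as error bars, the value against the 2 DMSO_Day 30 livers of the second run period as diamonds and the range over the alternatives as grey bars. The values of miR-34a and miR-34b-5p stay at 1.57 or above throughout, miR-135b drops to 0.93 against the same-period controls, and miR-770-3p spans 0.

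Of the miRNAs that p53 is known to induce beside miR-34, miR-192, miR-194 and miR-215 were measured. Their log2 fold changes were 0.64, 0.65 and 0.74 against the 7 controls, where the median of all miRNAs was 0.54, and -0.02, -0.06 and -0.31 against DMSO_Day 30. None of the 3 had a limma p under 0.05 in either comparison, where 10.6% of all miRNAs were higher against the 7 controls, and 4.79% were higher and 3.46% lower against DMSO_Day 30.

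The cluster that runs from miR-17 to miR-92a and its paralogs on other chromosomes are induced by MYC and E2F and drive proliferation. All 12 measured members had a log2 fold change above 0 against the 7 controls, as did 86.2% of all miRNAs, with a median of 0.70 against 0.54 for all miRNAs, and 4 of them, miR-19a, miR-19b, miR-106a and miR-106b, had a limma p under 0.05, where 10.6% of all miRNAs did. In ENU_Day 30, the levels of miR-19a were 2.27, 2.95, 2.88 and 2.10. They were 1.17, 1.28 and 0.38 in DMSO_Day 1 and 2.00, 2.11, 1.94 and 2.22 in DMSO_Day 30, so that the overlap came from 2 of the DMSO_Day 30 livers. For miR-19a the log2 fold change was 0.96 ± 0.40 (SE), for miR-19b 0.96 ± 0.38 (SE). Against DMSO_Day 30 alone, 11 of 12 members were above 0, beside 56.1% of all miRNAs, with a median of 0.29 against 0.06 for all miRNAs. At a limma p under 0.05, 0 of 12 passed there, beside 4.79% of all miRNAs higher and 3.46% lower.

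The let-7 family, whose members restrain growth by lowering RAS and HMGA2 and are abundant in adult tissue, had a median log2 fold change of 0.57 over 9 members. Of these, let-7e alone had a limma p under 0.05, a share close to the 10.6% of all miRNAs, with a log2 fold change of 0.83 ± 0.38 (SE) that was 0.06 against DMSO_Day 30 replicates 1 and 2 of the second run period. Against DMSO_Day 30 the median was 0.04, and the abundant let-7f, with a mean Ct of 17.0, had a log2 fold change of -0.0004.

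Of the 8 hepatocyte miRNAs, 0 were DEMs, beside 1.6% of all miRNAs. The levels of miR-122, which supports cholesterol and lipid metabolism, were 8.26, 8.08, 8.50 and 7.63 in ENU_Day 30. They were 6.75, 7.11 and 6.78 in DMSO_Day 1 and 8.08, 8.28, 8.12 and 8.04 in DMSO_Day 30, so that ENU_Day 30 was above the first set of controls and overlapped with the second. The median log2 fold change over the 8 hepatocyte miRNAs was 0.64 against the 7 controls and -0.01 against DMSO_Day 30, and miR-101b was the only member with a limma p under 0.05, in both comparisons, where 10.6% and 4.79% of all miRNAs were higher.

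Among markers of other liver cells, 0 of 9 immune cell miRNAs, 0 of 3 erythroid miRNAs and 0 of 11 endothelial and stromal miRNAs had a limma p under 0.05 against the 7 controls, where 10.6% of all miRNAs did. Their median log2 fold changes were 0.53, 0.66 and 0.54, and -0.03, 0.43 and -0.08 against DMSO_Day 30. The myeloid and lymphoid miR-142-3p had levels of -0.10, 0.77, 0.95 and -0.44 in ENU_Day 30, which overlapped with the control range of -1.61 to 0.65. For the red cell miRNA miR-451, the levels were 3.02, 3.72, 4.33 and 2.24 in ENU_Day 30, and those of the controls lay between 2.08 and 3.42. The endothelial miR-126-3p had a log2 fold change of 0.68 against the 7 controls and of -0.01 against DMSO_Day 30.

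In the miR-200 family, which keeps epithelial cells from mesenchymal change by lowering ZEB1 and ZEB2, miR-200a had a log2 fold change of 1.13 ± 0.48 (SE) with a limma p value of 0.035, and the median of the 5 members was 0.52. Of the family, miR-141 had a value of the opposite sign, -0.61 ± 0.71 (SE). Of the miR-135 pair, miR-135a had a log2 fold change of 0.21 ± 0.63 (SE) beside the 2.27 of miR-135b, and the difference between them was not tested. The miRNAs of other tissues, such as the brain miRNA miR-137 with 0.71 and the muscle miRNA miR-1 with -0.14, had a median of 0.52 over 15 members, and 0 of them had a limma p under 0.05, beside 10.6% of all miRNAs. This median turned to -0.38 against DMSO_Day 30 and to -0.28 against its 2 livers of the same run period.

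In the Dlk1-Dio3 cluster, 7 of 44 members had a limma p under 0.05, all higher, where 10.6% of all miRNAs were, with a median log2 fold change of 0.45. Against DMSO_Day 30, 4 were higher and 6 were lower at this p, among the latter miR-770-3p and miR-654-3p, where 4.79% of all miRNAs were higher and 3.46% lower, and the median was 0.04. Of 15 members of the rodent cluster in an intron of Sfmbt2 and of 13 pluripotency miRNAs of the miR-290 and miR-302 clusters, 0 and 1 had a limma p under 0.05, beside the 10.6% of all miRNAs, with medians of 0.57 and 0.19 against the 7 controls and of 0.16 and -0.46 against DMSO_Day 30. The single member was miR-292-5p, with 1.06 ± 0.42 (SE). Its log2 fold change was 0.71 against DMSO_Day 30 and 0.06 against DMSO_Day 30 replicates 1 and 2 of the second run period. In the mouse miR-681 to miR-721 series, 3 of 24 passed beside the same 10.6%, miR-698, miR-710 and miR-681, and the median was 0.40 against the 7 controls and -0.05 against DMSO_Day 30.

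**Figure D4:**
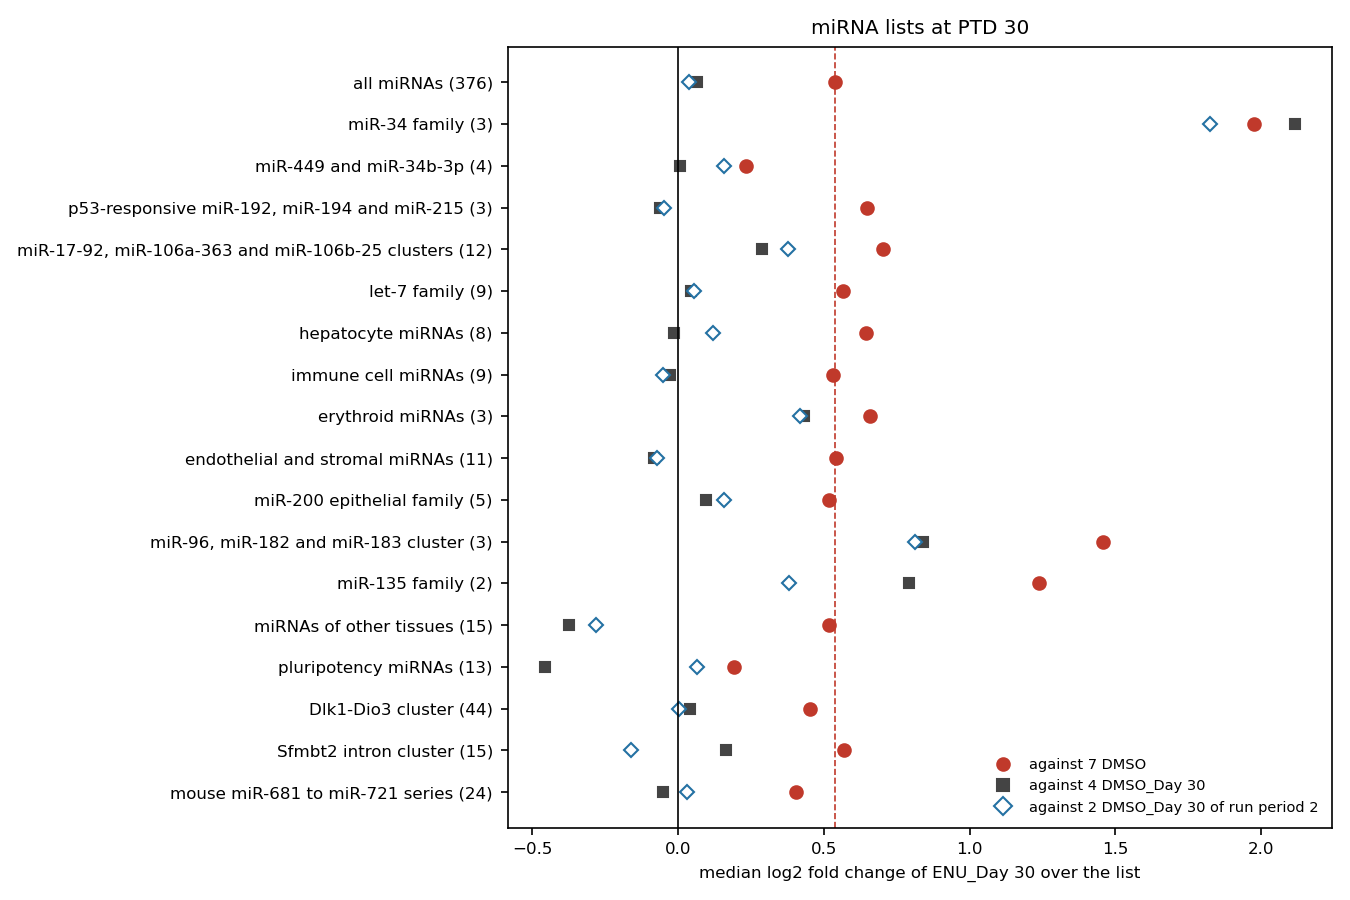
Median log2 fold change of ENU_Day 30 over the members of each list (x axis, number of members in brackets), against the 7 DMSO livers, the 4 DMSO_Day 30 livers and the 2 DMSO_Day 30 livers of the second run period. The miR-34 family lies at 1.98, 2.11 and 1.82, while all miRNAs lie at 0.54, 0.06 and 0.04, the value marked by the dashed line being 0.54.

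To see where PTD 30 differed from the ENU groups before and after it, ENU_Day 30 was compared directly with them, without any control. ENU_Day 120 was run in the same period as ENU_Day 30. Of the 376 miRNAs, 3 (0.798%) were DEMs, all of them higher at PTD 30, and these were miR-34b-5p, miR-343 and miR-34a. Their log2 differences were 1.50 ± 0.37 (SE), 1.39 ± 0.39 (SE) and 1.27 ± 0.37 (SE), with limma p values of 0.00184, 0.00468 and 0.00526 and an adjusted p of 0.659 each. By adjusted p under 0.05, 0 miRNAs differed, whereas at an unadjusted limma p under 0.05, 9 (2.39%) were higher and 4 (1.06%) lower. Of all miRNAs, 217 (57.7%) were higher on average at PTD 30, 7 (1.86%) were higher in every liver and 2 (0.532%) lower in every liver.

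In ENU_Day 120, the levels of miR-34a were -0.72, -0.71, -0.87 and 0.20. The levels of miR-34b-5p in these mice were -5.64, -5.77, -5.78 and -4.77. For both, ENU_Day 120 replicate 4 came closest to the ENU_Day 30 livers, which were all higher (exact permutation test, p = 0.0286, the smallest that 4 against 4 allow). The log2 difference of miR-34c was 0.70 ± 0.45 (SE), with overlap. That of miR-135b was 0.16 ± 0.36 (SE), with ENU_Day 120 levels of -5.60, -5.25, -6.09 and -6.49, and a difference was not detectable. The levels of miR-343, whose hairpin lies within the repair gene Ercc2, were -5.09, -4.75, -5.67 and -5.24 in ENU_Day 30 and -6.06, -6.06, -7.48 and -6.70 in ENU_Day 120. Against the 7 controls, its log2 fold change at PTD 30 was 0.63 ± 0.41 (SE).

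ENU_Day 15 was run wholly in the first period, so that time and run period cannot be told apart. Between ENU_Day 30 and ENU_Day 15, 72 miRNAs (19.1%) were DEMs, of which 56 (14.9%) were higher and 16 (4.26%) lower at PTD 30. With the median Ct of each array as the reference, 80 were DEMs, of which 35 were higher and 45 lower, so that the split between the directions rests on the reference. By adjusted limma p alone, 75 (19.9%) passed, and at an unadjusted p under 0.05, 85 (22.6%) were higher and 34 (9.04%) lower. Of all miRNAs, 214 (56.9%) were higher on average at PTD 30, 45 (12%) were higher and 20 (5.32%) lower in every liver. Among the DEMs, the 5 largest differences upward were 7.54 for miR-135b, 5.62 for miR-684, 4.57 for miR-681, 4.33 for miR-302c* and 4.22 for miR-742. The levels of miR-135b in ENU_Day 15 were -11.42, -12.96, -13.46, -12.23 and -16.13, which corresponds to Ct values between 33.6 and 39.7. The lowest controls for miR-135b, miR-684, miR-681 and miR-742 were DMSO_Day 30 replicates 3 and 4. Their levels were -10.53 and -12.09 for miR-684, -9.83 and -9.39 for miR-681, and -11.68 and -12.11 for miR-742. DMSO_Day 1, run in the first period like ENU_Day 15, ranged from -7.59 to -6.70, -8.52 to -7.32 and -9.12 to -8.13. For miR-302c*, replicates 3 and 4 lay within the other controls. The cause was not tested. Among the DEMs that were lower, the 5 largest differences were -2.64 for miR-679, -2.32 for miR-449a, -2.14 for miR-590-3p, -1.95 for miR-294* and -1.76 for miR-298. No Ct was given in ENU_Day 15 replicate 1 for miR-449a and in replicate 3 for miR-684, so that these differences rest on 4 of the 5 ENU_Day 15 livers. With such wells at Ct 40, the difference of miR-449a was -0.67 ± 1.57 (SE) and no longer passed, whereas miR-684 remained a DEM with 6.61 ± 1.08 (SE), and 54 miRNAs were higher and 14 lower.

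The miR-34 miRNAs were not DEMs in this comparison. At PTD 15, miR-34a had levels of 1.76, 1.49, 1.59, 1.63 and 1.23, all above the 4 ENU_Day 30 livers, and the log2 difference was -0.80 ± 0.30 (limma, adjusted p = 0.0857). For miR-34c it was -0.97 ± 0.34 (limma, adjusted p = 0.069), and the groups all but touched. The nearest livers were ENU_Day 15 replicate 3 at -7.561 and ENU_Day 30 replicate 2 at -7.563. For miR-34b-5p the log2 difference was -0.48 ± 0.31 (limma, adjusted p = 0.341), with overlap. The mean levels of miR-34a were 1.54 in ENU_Day 15, 0.74 in ENU_Day 30 and -0.53 in ENU_Day 120, beside -1.05 in DMSO_Day 1 and -1.38 in DMSO_Day 30.

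**Figure D5:**
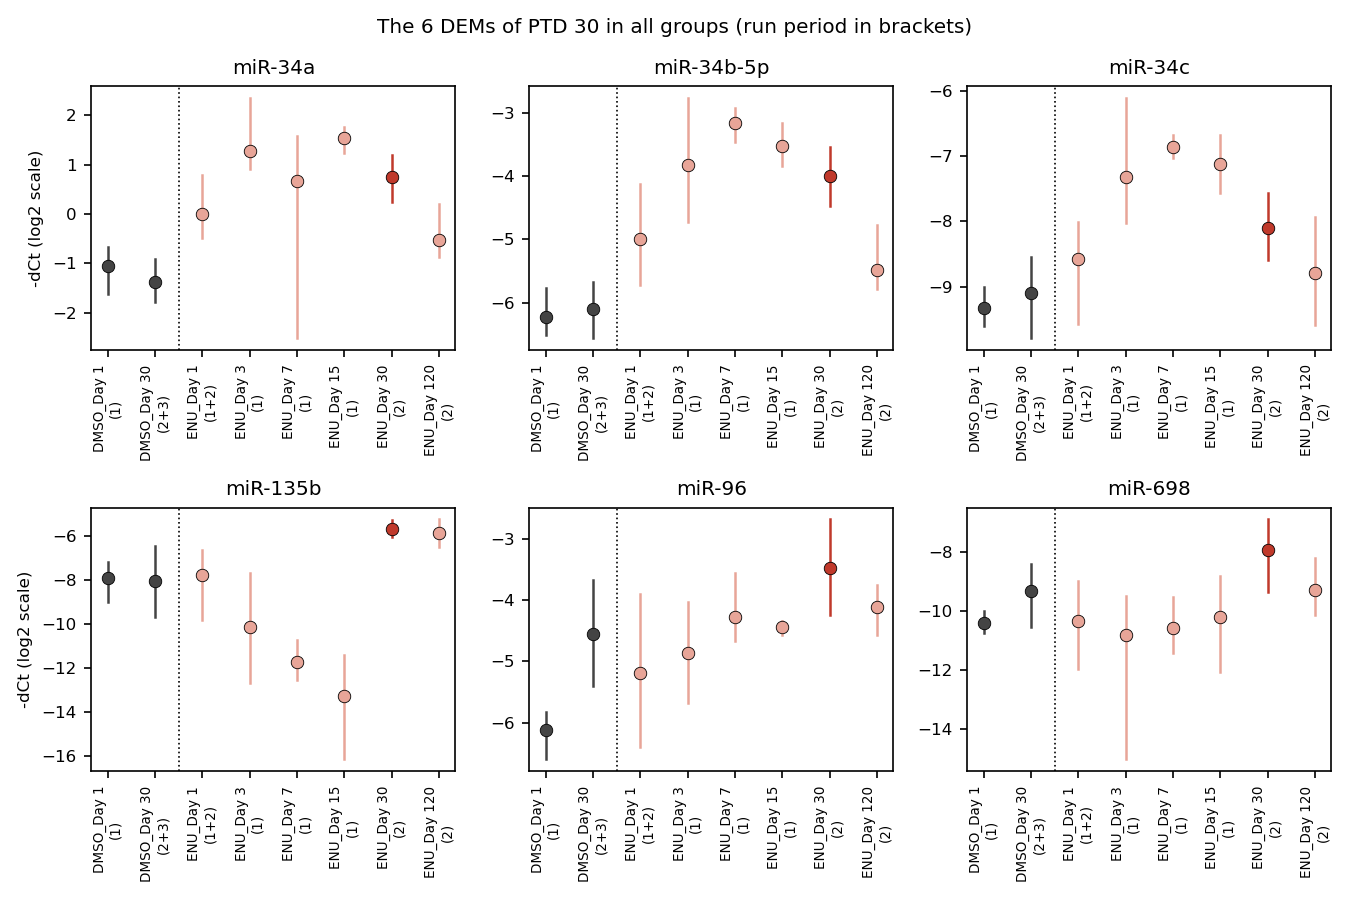
Mean level as -dCt (points, y axis, log2 scale) and range over the livers (lines) of the 6 DEMs in every group, with the run period of the arrays in brackets and ENU_Day 30 in dark red. For miR-34a, miR-34b-5p and miR-34c the ENU_Day 30 mean lies between those of ENU_Day 15 and ENU_Day 120, while miR-135b is at -5.70 and -5.86 in ENU_Day 30 and ENU_Day 120, which shared the second run period, and at -13.24 in ENU_Day 15.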

How the data were processed

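The authors deposited, per array, the Ct of each well as SDS 2.3 gave it, with a threshold of 0.15, an automatic baseline and no normalization. Wells were named by the miRNA list of the study. From Ct, -dCt was computed against the mean of the 4 reference RNAs of the array, and wells listed as Undetermined were missing. Samples were grouped by their labels. ENU_Day 30 was compared with the 7 DMSO livers, with DMSO_Day 30, ENU_Day 120 and ENU_Day 15 in limma (version 3.58.1, R version 4.3.3), 1 two-sided fit each over all 376 miRNAs with only the groups compared and no covariate. As in the study, all DMSO mice formed 1 control group, and DEMs had an unadjusted p under 0.01 with a fold change over 2. Benjamini-Hochberg adjusted p values over the 376 were computed in addition. Single miRNAs were tested by exact permutation, two-sided (scipy version 1.17.1, numpy version 2.4.6, pandas version 2.3.3, Python version 3.11.15), and figures were drawn with matplotlib (version 3.10.9). Exact permutation p values are unadjusted unless given as adjusted by Benjamini-Hochberg over the 59 named miRNAs. The text names all DEMs, the miR-34 and miR-449 miRNAs, the 5 lower miRNAs with the smallest p, of each list the 2 members with the lowest mean Ct and that with the smallest p as far as they are described, and the 5 largest DEMs each way against ENU_Day 15. These members and lists were chosen with earlier results of these data known. On data simulated for 4 against 7 samples, limma called on average 28.6 of 40 miRNAs changed by 2 on the log2 scale, and 2.8 of the others. Each miRNA was drawn independently there, without shifts shared by an array or run period, so the 2.8 leaves out calls from such shifts. Run periods were separated by gaps of more than 14 days. No depth applies, and the number of arrays limits the precision. The alternatives tried are given with their effect in the closing section.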

Additional observations from a re-analysis of the deposited data

Results flagged for a closer look

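Within ENU_Day 30, the level of miR-429 in replicate 4 was -7.12, while the other 3 livers lay between -3.31 and -2.62. It was the single value of this kind among 118 groups of the named miRNAs that were looked at, and chance gives about 1 in 20 groups.

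Between ENU_Day 30 and ENU_Day 15, 18 of the 59 named miRNAs differed with an adjusted p of limma under 0.05 and a fold change above 2, beside 19.1% of all 376. Of the 18, 10 were named for being among the largest DEMs of this same comparison, so that the count says nothing of the named miRNAs, and run period and time cannot be told apart for any of them. The log2 differences, as PTD 30 minus PTD 15, were 7.54 for miR-135b, 5.62 for miR-684, 4.57 for miR-681, 4.33 for miR-302c*, 4.22 for miR-742, 3.38 for miR-292-5p and 3.29 for miR-758. They were 2.25 for miR-698, 1.76 for miR-297b-3p, 1.27 for miR-467e and 1.21 for miR-200a. Of these miRNAs, miR-135b, miR-684, miR-681 and miR-742 were also lowest among the controls in DMSO_Day 30 replicates 3 and 4. Lower at PTD 30 were miR-679 with -2.64, miR-449a with -2.32, miR-590-3p with -2.14, miR-294* with -1.95, miR-298 with -1.76, miR-721 with -1.63 and miR-770-3p with -1.19. For miR-449a, miR-684 and miR-758, 1 of the 5 ENU_Day 15 livers gave no Ct and was left out. With that well at Ct 40, the differences were -0.67 for miR-449a and 5.31 for miR-758, with an adjusted p of limma of 0.826 and 0.0825, and 6.61 for miR-684 with an adjusted p of 0.00238. Against ENU_Day 120, 0 named miRNAs differed in this way.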

How the results depend on the processing

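The 6 DEMs against the 7 controls became 2 with adjusted p under 0.05, 3 with the controls of the same run period, 13 with the reverse transcription control difference as a covariate and 141 with DMSO_Day 1 alone. Without the controls of the third run period, an alternative chosen after seeing the data, there were 13, at a median of all miRNAs of 0.70. Leaving out single livers gave 4 to 15, with 15 without DMSO_Day 30 replicate 2 and 10 without DMSO_Day 30 replicate 4. The cause was not tested. The 5 DEMs against DMSO_Day 30 became 3 by the methods' t-test, 2 by adjusted p and 3 with the controls of the same run period, and 2 to 14 without single livers. The 3 DEMs against ENU_Day 120 became 0 by adjusted p and 2 to 5 without single livers, and the 72 against ENU_Day 15 became 31 where the mean Ct was 30 or lower, and 54 to 77 without single livers. The median of all miRNAs, 0.54, was 1.11 against DMSO_Day 1 alone and 0.39 to 0.67 without single livers. Of the 59 named miRNAs, 15 had an exact permutation p under 0.05 against the 7 controls, 9 without snoRNA142 among the references, 5 against DMSO_Day 30 alone, 28 against DMSO_Day 1 alone and 7 to 18 without single livers. Many of the 59 were named for being DEMs or having the smallest limma p of their list in this comparison. These counts therefore say nothing of the named miRNAs. By limma, 16 of the 59 had an unadjusted p under 0.05, beside 10.6% of all 376 miRNAs higher and 0 lower. The exact test was not run over all 376. The exact test cannot pass with the controls of the same run period. Of the 181 listed miRNAs, 6 were called, 78 against DMSO_Day 1 alone, 3 with the controls of the same run period and 4 to 11 without single livers. Over all 376 miRNAs, these counts were 6, 141, 3 and 4 to 15, and the lists were chosen with earlier results known. The sign of miR-770-3p reversed to 1.31 against DMSO_Day 1 alone.

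Replicate numbers did not pair the samples, as the correlations of same-numbered samples' deviations lay between -0.36 and 0.17. Under a replicate block, there were 6 DEMs against the 7 controls, of which 4 were shared, 7 against DMSO_Day 30, 2 against ENU_Day 120 and 73 against ENU_Day 15.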
